A study of Mus musculus with 15 samples.

Results

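The Cyp2b cytochromes P450 were described in mouse liver from 3 genes, Cyp2b9, Cyp2b10 and Cyp2b13, of 19938 genes measured. They were chosen by gene symbol: each was the single symbol of a probe set, and each had 1 probe set. Liver RNA came from 15 male mice aged 7.5 months (± 2.5 weeks), with 1 array per animal. Of the wild-type mice 4 received corn oil and 4 received DEHP, the plasticizer di(2-ethylhexyl) phthalate, at 1150 mg/kg/day in corn oil. Mice lacking the receptor PPARα made up the other groups, 4 on corn oil and 3 on that DEHP dose. All mice were gavaged daily for 4 days, so corn oil was common to every group. The nulls carried the Pparatm1Gonz allele in all tissues on 129S4/SvJae, while the wild-type mice were 129S1/SvlmJ, so genotype and substrain cannot be told apart. Animals are named by genotype (WT or KO) and label number.

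Cyp2b enzymes oxidize drugs, steroids and other foreign chemicals in the endoplasmic reticulum of hepatocytes. Cyp2b10 is the classic mouse target of the constitutive androstane receptor CAR (gene Nr1i3), a nuclear receptor that moves into the nucleus of hepatocytes exposed to phenobarbital-like inducers and binds DNA with the retinoid X receptor. Cyp2b9 and Cyp2b13 are known as female-predominant genes of mouse liver, held down in males by the male pattern of growth hormone. PPARα, the fatty acid receptor that DEHP metabolites activate, is the receptor missing in the nulls.

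All of these genes lie in the Cyp2 gene cluster of chromosome 7, where Cyp2b10, Cyp2b13 and Cyp2b9 follow each other with 3 Cyp2b pseudogenes between them. The sequence before each start site is shown because 2 of the genes are close copies there. The likeness of their transcripts, which the probes read, was not measured, so this sequence does not show how far the probes tell them apart. The sequences are those of RefSeq (GRCm38.p6, plus strand), printed from 250 bases before the start site up to the first base that is annotated to the gene. Capitals mark matches to TTGCNNAA, a C/EBP site, and AGGTCA, the core element that nuclear receptors bind.

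Cyp2b10, chr7:25897408-25897657: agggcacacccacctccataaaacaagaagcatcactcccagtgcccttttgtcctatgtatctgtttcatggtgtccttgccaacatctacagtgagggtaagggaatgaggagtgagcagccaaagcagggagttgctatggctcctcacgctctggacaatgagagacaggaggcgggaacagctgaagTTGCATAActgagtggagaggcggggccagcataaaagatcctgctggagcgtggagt
Cyp2b9, chr7:26173159-26173349: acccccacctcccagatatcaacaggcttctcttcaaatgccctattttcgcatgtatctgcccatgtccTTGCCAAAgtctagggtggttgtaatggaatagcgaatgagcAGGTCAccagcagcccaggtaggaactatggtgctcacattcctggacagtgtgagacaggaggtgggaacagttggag
Cyp2b13, chr7:26061245-26061387: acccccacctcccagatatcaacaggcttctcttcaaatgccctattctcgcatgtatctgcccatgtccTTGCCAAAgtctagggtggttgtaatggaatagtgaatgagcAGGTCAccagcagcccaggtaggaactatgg

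Over the full window of 250 bases the Cyp2b9 and Cyp2b13 sequences differed at 2 positions (99.2% identity). For these genes the window runs past the first annotated base, so only 191 and 143 bases are printed. The start site that positions are counted from thus lies inside the annotated gene for both. Cyp2b10 was 71% identical to either of them in a global alignment. Cyp2b9 and Cyp2b13 each held AGGTCA, starting 138 bases before the start site, and TTGCCAAA, starting 180 bases before it. Cyp2b10 held TTGCATAA, starting 58 bases before the start site. On both strands, AGGTCA occurred in 14% and TTGCNNAA in 9.56% of 32851 promoter windows of this length. No match to AGTTCA (a related receptor element, in 11.8% of windows), TATAAA (the TATA box, 12.4%) or TTCNNNGAA (a STAT site, 7.02%) lay in the windows of the 3 genes. The searched letters do not overlap each other, and a match describes the letters, not the binding of a factor. Only these 250 bases were searched, so a gene without a match here, such as Cyp2b10 for AGGTCA, may hold one further upstream.

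Log2 differences carry limma's standard error, and p-values were adjusted across the 19938 genes of each comparison, and a gene counts as called, or is said to have risen or fallen, only below an adjusted p of 0.05. Ppara, the targeted gene, read 9.78 ± 0.11 (SD, n = 4) log2 units in wild-type and 9.09 ± 0.11 (n = 4) in null controls (adjusted p = 0.00645 in limma). Its probe set thus still gave signal in the nulls, and whether its probes lie in the deleted part is not stated in the sources used here. Hepatocyte markers such as albumin and transthyretin had a mean log2 intensity of 13.25 to 13.41 in each array (9 of 10 markers measured). One array stood apart: KO-121, of the null DEHP group, had a summed intensity of 2470 over 8 pancreas, fat and muscle markers, against 302 to 390 in the other 14 arrays. In that array the skeletal muscle genes Acta1, Myh1 and Ckm read 1410, 463 and 423, against at most 87.5, 21.2 and 50 in KO-122 and KO-123, while the fat marker Adipoq read 8.83 there and 9.46 in KO-122. Results that rest on the null DEHP group are therefore followed by their value without KO-121. Because whole liver was measured, fewer cells of a type and less RNA per cell cannot be told apart.

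Cyp2b10 was lower in null than in wild-type livers on corn oil, higher after DEHP in the nulls, and at overlapping levels in the genotypes under DEHP. Its log2 intensity in wild-type controls was 8.16, 8.24, 8.25 and 8.13 (WT-52 to WT-55). In null controls it was 6.76, 6.83, 6.92 and 7.37 (KO-115 to KO-118). Every null control lay below every wild-type control, with a gap of 0.76 between the groups, and KO-118 was the highest null control.

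On the linear scale, the mean intensity of Cyp2b10 was 294 ± 12.2 (SD, n = 4) on corn oil in wild-type mice and 127 ± 26.3 (n = 4) in nulls. The null level was 0.427 of the wild-type level (log2 difference -1.23 ± 0.15, 95% interval -1.55 to -0.91, adjusted p = 0.000269 in limma). Of the 3 Cyp2b genes 1 was called lower in null controls, where 0.547% of all genes were. Among the 109 genes called lower, Cyp2b10 had the difference ranked 17 by size. Groups without overlap in this direction were found for 3.67% of all genes. An exact two-sided permutation test gave p = 0.0286, the lowest that 4 against 4 animals allow, and 0.171 after adjustment over the 12 tests of Cyp2b genes.

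**Figure D1:**
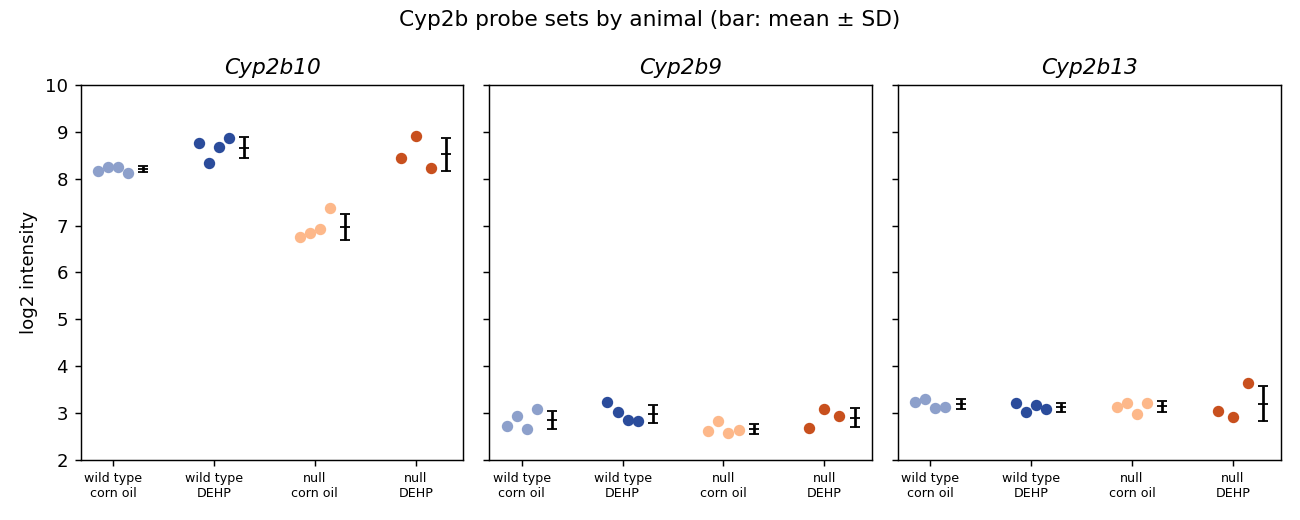
Log2 intensity of the Cyp2b10, Cyp2b9 and Cyp2b13 probe sets in each animal (points) of the 4 groups, with mean ± SD beside them. Cyp2b10 lies between 6.76 and 7.37 in null controls and between 8.13 and 8.91 in all other animals, while Cyp2b9 and Cyp2b13 stay between 2.58 and 3.64 in every group.

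In null livers DEHP raised Cyp2b10. The null DEHP animals read 8.43, 8.91 and 8.23 (KO-121 to KO-123), all above the highest null control at 7.37. Mean intensity was 375 ± 93.8 (SD, n = 3) under DEHP. The rise was 2.93-fold (1.55 ± 0.16, 95% interval 1.21 to 1.9, adjusted p = 0.000635 in limma), ranked 3 by size among the 32 genes that rose. Of the 3 Cyp2b genes 1 rose, against 0.16% of all genes, and 5.57% of all genes had groups without overlap in this direction.

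The size of this rise was close with each animal left out, from 1.36 without KO-122 to 1.7 without KO-123, and it was 1.6 (adjusted p = 0.00319 in limma) without KO-121. With only the null groups in the fit the same 1.55 was not called (adjusted p = 0.099 in limma). The exact permutation p was 0.0571, the lowest that 4 against 3 animals allow, and 0.229 after adjustment over the 12 tests. The low null controls enter both this rise and the genotype difference on corn oil, so these results share 4 arrays and are not independent.

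In wild-type livers the Cyp2b10 values under DEHP were 8.77, 8.33, 8.68 and 8.86 (WT-56 to WT-59). All 4 lay above the wild-type controls, WT-57 by 0.07 over the highest of them. Mean intensity was 408 ± 62.4 (SD, n = 4). The difference of 0.46 ± 0.15 (1.38-fold, 95% interval 0.14 to 0.78) did not pass the adjusted threshold in limma (adjusted p = 0.115, unadjusted p = 0.00767). None of the 3 Cyp2b genes was called in wild-type mice and 1 had an unadjusted p below 0.05 in limma, where 3.86% of all genes were called. Groups without overlap and higher under DEHP were found for 6.1% of all genes. With only the wild-type groups in the fit the same 0.46 was called (adjusted p = 0.0418 in limma), and the exact permutation p was 0.0286, or 0.171 after adjustment over the 12 tests.

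The DEHP effect on Cyp2b10 was larger in null than in wild-type mice. The difference between the effects was 1.09 ± 0.22 (95% interval 0.62 to 1.56, adjusted p = 0.0308 in limma), where 0.336% of all genes were called in this direction, and 1 of 3 Cyp2b genes was. Without KO-121 it was 1.14 (adjusted p = 0.0375). The call was lost in 7 of 15 leave-out fits, without WT-52, WT-53, WT-54, WT-55, KO-115, KO-117 or KO-122, with the highest adjusted p, 0.0778, and the lowest difference, 0.9, without KO-122. With all probe sets tested in place of 1 per gene, adjusted p was 0.069.

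Under DEHP the Cyp2b10 levels of the genotypes overlapped. The null minus wild-type difference was -0.14 ± 0.16, with a 95% interval of -0.48 to 0.21 (adjusted p = 0.699 in limma), and -0.09 without KO-121. None of the 3 Cyp2b genes was called here, with 0 at an unadjusted p below 0.05 in limma, where 10.7% of all genes were called. The interval leaves room for a null level between 0.715 and 1.15 of the wild-type level. By mean log2 level the groups ran from wild-type DEHP (8.66), null DEHP (8.52) and wild-type controls (8.20) down to null controls (6.97). The first 2 of these neighbours overlapped, as did null DEHP, whose lowest animal read 8.23, with wild-type controls, whose highest read 8.25. Null controls overlapped no other group.

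**Figure D2:**
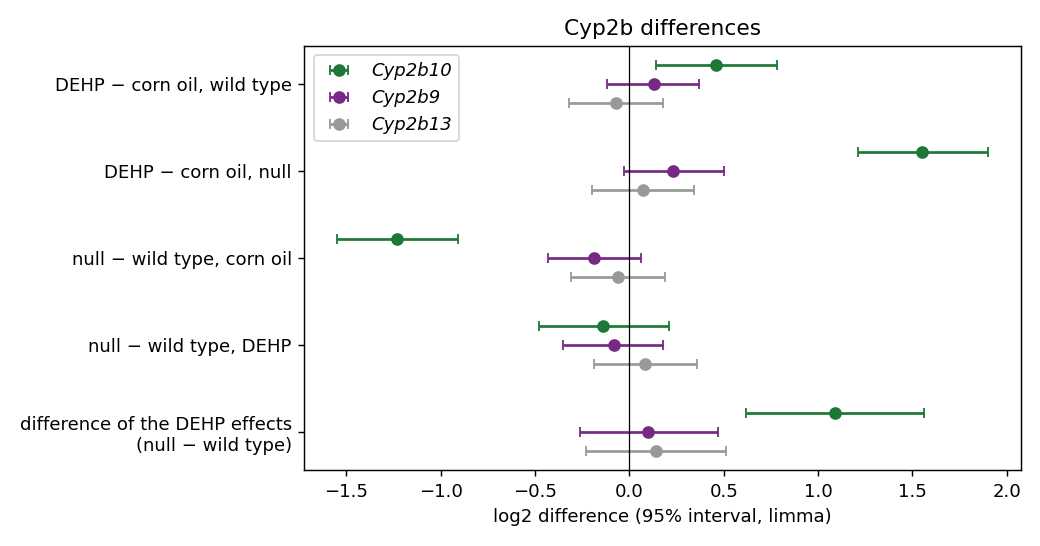
Log2 differences of Cyp2b10, Cyp2b9 and Cyp2b13 (points) with 95% intervals from limma (bars) for 5 comparisons. The Cyp2b10 intervals leave 0 for both DEHP effects, for the genotypes on corn oil and for the difference of the DEHP effects, while all intervals of Cyp2b9 and Cyp2b13 include 0.

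Cyp2b9, a female-predominant steroid hydroxylase gene, gave low signal in these male livers. Its log2 intensity was 2.73, 2.93, 2.66 and 3.09 in wild-type controls and 3.24, 3.01, 2.84 and 2.83 in wild-type DEHP mice. It was 2.62, 2.83, 2.58 and 2.63 in null controls and 2.67, 3.09 and 2.93 in null DEHP mice. The groups of each comparison overlapped, and the one pair that did not, wild-type DEHP mice from 7.13 upward and null controls up to 7.1 on the linear scale, differed in both genotype and treatment. Over the 15 arrays intensity ran from 5.97 to 9.44. Between 3.03 and 8.22% of all genes on the same array read lower. The value table holds no detection call, so whether such a probe set is above background is not known here.

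No difference in Cyp2b9 was called. Its DEHP effect was 0.13 ± 0.12 (95% interval -0.12 to 0.37) in wild-type and 0.23 ± 0.12 (-0.03 to 0.5) in null mice, or 0.35 without KO-121 (adjusted p = 0.286 in limma). Under DEHP the null minus wild-type difference was -0.08 ± 0.12, and 0.03 without KO-121, and the difference of the DEHP effects was 0.10 ± 0.17, and 0.22 without it. Null controls differed from wild-type controls by -0.19 ± 0.12 (-0.43 to 0.06), and adjusted p in limma ran from 0.477 to 0.851 over the 5 comparisons.

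Cyp2b13, a close copy of Cyp2b9 in the window before the start site, was also dim. Its log2 intensity was 3.24, 3.30, 3.10 and 3.13 in wild-type controls and 3.22, 3.01, 3.17 and 3.08 in wild-type DEHP mice. Null controls read 3.13, 3.22, 2.98 and 3.22, and null DEHP mice 3.05, 2.92 and 3.64. All groups overlapped, and KO-123, at 12.4 on the linear scale, was the highest of the 15 arrays, where the other 14 ran from 7.58 to 9.88.

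The DEHP effect on Cyp2b13 was -0.07 ± 0.12 (95% interval -0.32 to 0.18) in wild-type and 0.07 ± 0.13 (-0.2 to 0.34) in null mice. The latter read -0.15 without KO-123 and 0.14 without KO-121. Under DEHP the genotypes differed by 0.08 ± 0.13 (0.16 without KO-121), and the DEHP effects by 0.14 ± 0.18 (0.22 without it). The genotype difference on corn oil was -0.06 ± 0.12 (-0.31 to 0.19), and adjusted p in limma ran from 0.78 to 0.91 over the 5 comparisons. How well the probes tell Cyp2b9, Cyp2b13 and the neighbouring pseudogenes apart is not stated in the sources used here, so the values of both genes are uncertain in that respect.

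The other measured Cyp2 genes of the cluster gave no call where Cyp2b10 did, but most of them were dim. Measured there were Cyp2b19 and Cyp2b23, the remaining Cyp2b genes, with Cyp2a12, Cyp2a22, Cyp2f2, Cyp2g1, Cyp2s1 and Cyp2t4. Of the 10 listed genes Cyp2a4 and Cyp2a5 were not measured. On the linear scale Cyp2b19, Cyp2b23, Cyp2g1 and Cyp2t4 read at most 27.5, 36.1, 17.3 and 30.2, below the array medians of 44.4 to 47.53. Group means were 40.2 to 45.1 for Cyp2s1 and 40.6 to 65.3 for Cyp2a22. Only Cyp2a12 and Cyp2f2 were bright, from 2200 and 7520 upward, so the lack of a call says little for the rest. None of these 8 was called between the control groups (1 lower at an unadjusted p below 0.05 in limma) or for DEHP in null mice (0 at that level). Cyp2b19 and Cyp2b23 read -0.14 and -0.02 for null against wild-type controls and 0.16 and 0.19 for DEHP in null mice (0.06 and 0.17 without KO-121). In wild-type mice 1 of the 8 fell with DEHP, against 1.57% of all genes: Cyp2f2, a periportal cytochrome, by 0.27 on the log2 scale (adjusted p = 0.0487 in limma). Its call was lost without any 1 of WT-52 to WT-58, with adjusted p up to 0.136 without WT-53, and also after median centring, with all probe sets tested and with only the wild-type groups in the fit. Without KO-121 none of the 8 was called for DEHP in null mice either (limma, 1 higher at an unadjusted p below 0.05).

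Nr1i3, which encodes CAR, read 11.02 ± 0.08 (SD, n = 4) in wild-type controls, 11.10 ± 0.17 (n = 4) under DEHP, and 11.33 ± 0.13 (n = 4) and 11.34 ± 0.12 (n = 3) in the same null groups. It was thus 0.31 ± 0.09 higher in null controls (adjusted p = 0.124 in limma), where Cyp2b10 was lower, and its DEHP effects were 0.08 (adjusted p = 0.724) and 0.01 (adjusted p = 0.972). Of 23 measured genes of CAR and its partners and regulators, 1 was called in the controls: Ppara itself, lower in nulls, as were 0.547% of all genes. In wild-type mice 1 fell with DEHP, against 1.57% of all genes: the insulin-regulated factor Foxo1 (-0.27, adjusted p = 0.0351 in limma). Its call was lost without WT-52, WT-53, WT-54, WT-55, WT-56, WT-57 or WT-59, with adjusted p up to 0.117 without WT-53. It was also lost after median centring (0.0675), with all probe sets tested and with only the wild-type groups in the fit. In null mice, where 0.16% of all genes were called higher and 0.311% lower with DEHP, none of the 23 was called, with or without KO-121. At an unadjusted p below 0.05 in limma 1 was higher and 1 lower in both fits. The Nr1i3 effect was 0.07 without KO-121.

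Other known targets of CAR and of the related drug receptor PXR were not called lower with Cyp2b10 in null controls, with Cyp2c29 an exception under some settings. Of 36 measured, 0 were called lower and 2 higher there (limma, 4 lower and 9 higher at an unadjusted p below 0.05), where 0.642% of all genes were called higher, with a median difference of 0.03 against -0.01 for all genes. The 2 were the glutathione transferase Gstm2 (0.67 ± 0.12, adjusted p = 0.00817) and the imprinted noncoding RNA Meg3 (1.07 ± 0.19, adjusted p = 0.00758). The drug-oxidizing cytochromes Cyp2c55 and Cyp2c29 read -0.45 (adjusted p = 0.214) and -0.27 (adjusted p = 0.0795) in limma. Cyp2c29 was called lower with an offset of 32, with dim genes left out, with a trend and robust prior, with array weights (adjusted p from 0.0282 to 0.0418) and without KO-118 (0.0253). Alas1, the first enzyme of heme synthesis, had the largest difference of the list, 1.90 ± 0.50, which did not pass (adjusted p = 0.0946) but did with only the control groups in the fit (0.0123).

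With DEHP in null mice 7 of the 36 rose and 0 fell (limma, 20 higher and 0 lower at an unadjusted p below 0.05), against 0.16% of all genes higher and 0.311% lower, with a median of 0.33 against 0.01. The gene lists were chosen with earlier results of these data known, so such shares are a description and not an independent test. Cyp2c55 rose 4.22-fold (2.08 ± 0.17, adjusted p = 3.86e-05 in limma, and 2.23 without KO-121). It was dim in null controls, at 16.6 to 26.4 on the linear scale, and with an offset of 32 before log2 its rise was 1.18, below the 1.34 of Cyp2b10 under that offset. Cyp2c37 rose 1.85-fold (0.88 ± 0.15), the carboxylesterase gene Ces2a 1.77-fold (0.82 ± 0.13) and Cyp2c29 1.55-fold (0.64 ± 0.07), which read 1.02, 0.89 and 0.70 without KO-121. The other 3 were the retinal dehydrogenase Aldh1a1 (0.34), the epoxide hydrolase Ephx1 (0.40) and Gstm1 (0.38). Without KO-121 there were also 7 calls, without Ephx1 and Gstm1 among them. The count was 3 without KO-117, 4 without KO-118, 2 without KO-122, 2 without KO-123, and 1, Cyp2c55, with only the null groups in the fit. Cyp2c37 lost its call without KO-117, KO-122 or KO-123 and Ces2a without KO-122 or KO-123. Aldh1a1 lost it without KO-117, KO-118, KO-122 or KO-123, Gstm1 without KO-117, KO-118 or any null DEHP animal, and Ephx1 without any 1 of the 7 animals. These 3 also lost it after median centring, and Gstm1 and Ephx1 after quantile normalization and with all probe sets tested. Like Cyp2b10, these values rest on the null controls.

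Among the 36, 10 were higher and 5 lower with DEHP in wild-type livers, against 2.29% and 1.57% of all genes, with a median of 0.09 against -0.01. Those that rose included the PXR-responsive cytochromes Cyp3a13 (0.64) and Cyp3a11 (0.47) and the glutathione transferase Gstm4 (0.74). Those that fell included Meg3 (-1.18), the transporter Slco1a4 (-1.15) and Cyp2c37 (-0.51), whose call was lost whichever of the 8 animals was left out, after median centring and with all probe sets tested. The count of 15 was 7 without WT-54, 8 without WT-55 and 9 without WT-58. The difference of the DEHP effects, null minus wild-type, was called for 5 of the 36, all positive, against 0.336% of all genes called in this direction. They were Cyp2c55 (1.54), Cyp2c37 (1.40), Cyp2c54 (1.04), Cyp1a2 (0.63) and Cyp2c29 (0.53). Without KO-121 these were 1.70, 1.53, 1.16, 0.67 and 0.59, and with an offset of 32 that of Cyp2c55 was 0.90. Cyp2c37, Cyp2c54 and Cyp1a2 were called lower with DEHP in wild-type mice. Cyp2b10 lay higher with DEHP in both genotypes, but in the fit of all 15 arrays it was called only in nulls. Cyp2c37 was also called higher with DEHP in null mice, while Cyp2c54 and Cyp1a2 were not called there. From controls to DEHP the mean log2 intensity of Cyp2c54 went from 11.17 to 10.65 in wild-type and from 11.33 to 11.85 in null mice. For Cyp1a2 it went from 12.47 to 12.15 and from 12.55 to 12.86. The count of 5 was 3 without KO-122. Of these 5, Cyp1a2 lost its call without KO-122, and Cyp2c29 without KO-115, KO-122, KO-123, WT-53 or WT-54 and after median centring.

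**Figure D3:**
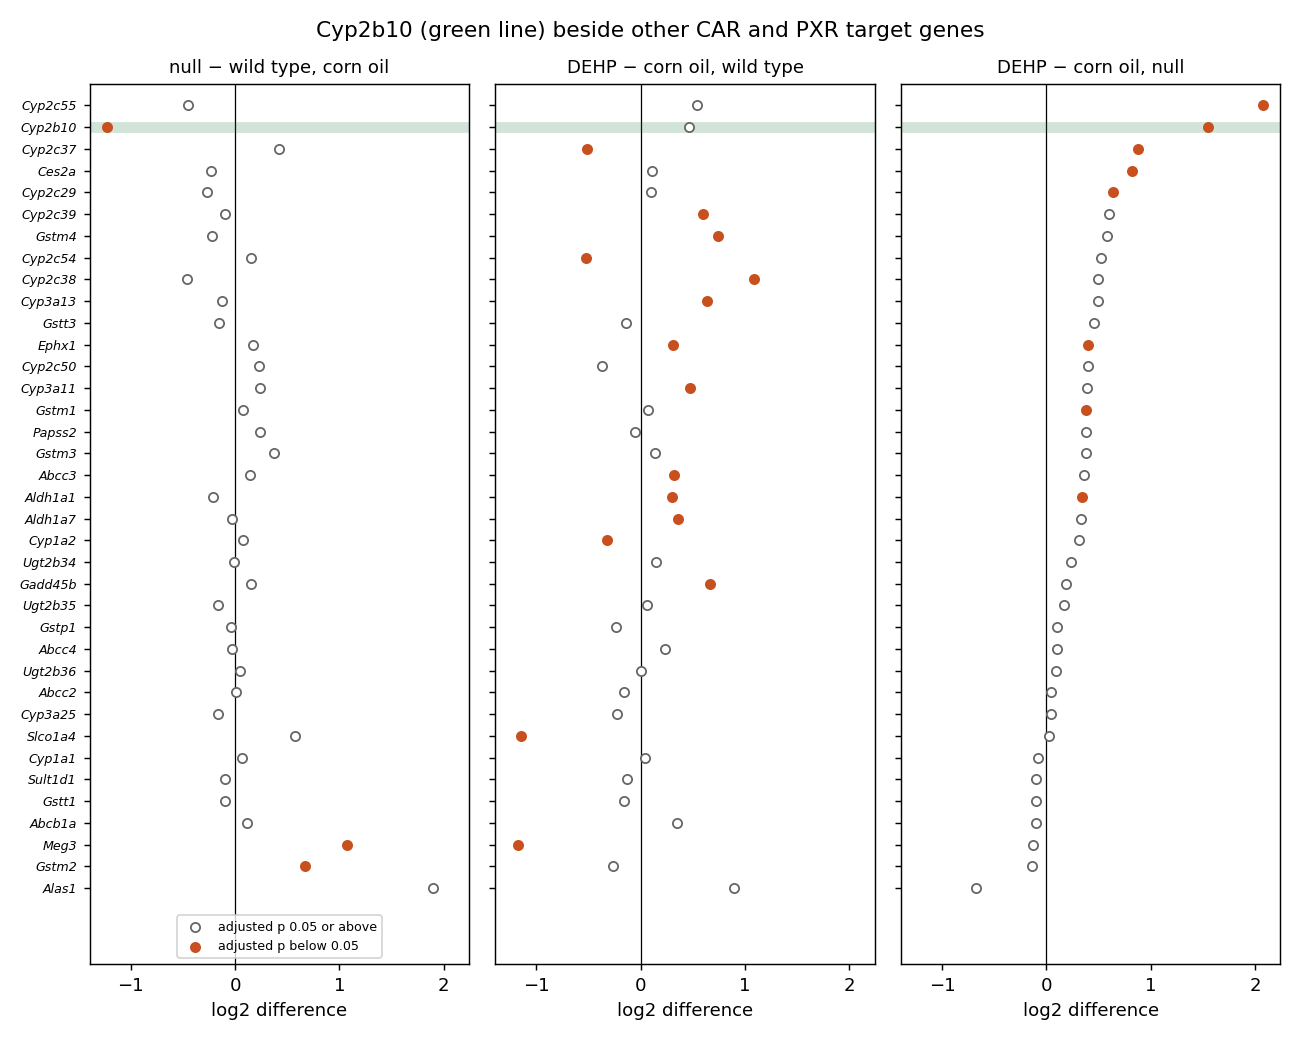
Log2 differences of Cyp2b10 (green line) and the 36 other measured CAR and PXR target genes in 3 comparisons, ordered by the DEHP effect in null mice. Filled points passed an adjusted p of 0.05 in limma: Cyp2b10 is the one filled point left of 0 among the control groups, and for DEHP in null mice it is second to Cyp2c55, an order that turns with an offset of 32 before log2 (1.34 against 1.18).

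Genes with known sex bias in liver were set beside Cyp2b9 and Cyp2b13. Of 21 measured female-biased genes 2 rose with DEHP in wild-type mice, the cytochrome Cyp3a44 (0.71) and the hydroxyacid oxidase Hao2 (1.07), against 2.29% of all genes. In null mice 1 rose, Cyp3a44 (0.89, or 1.05 without KO-121), against 0.16% of all genes. None was called between the control groups (limma, 4 higher and 2 lower at an unadjusted p below 0.05). The Cyp3a44 call was lost without WT-52, WT-53, WT-54 or WT-59 in wild-type mice and without KO-115, KO-117, KO-118, KO-122 or KO-123 in nulls, and in both genotypes with all probe sets tested. In nulls it was also lost after median centring and with only the null groups in the fit. The Hao2 call was lost without any 1 of WT-53 to WT-58, with all probe sets tested, with a trend and robust prior and with only the wild-type groups, and its size was 0.43 with an offset of 32 before log2. Of 23 male-biased genes 4 were higher and 3 lower with DEHP in wild-type livers (2.29% and 1.57% of all genes), 2 were higher in null controls (0.642% of all genes), and none was called in null mice (limma, 5 higher and 2 lower at an unadjusted p below 0.05).

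Markers of liver zones and cell types moved with some of the same groups. Of 11 measured pericentral hepatocyte markers 4 were higher and 1 lower in null controls, against 0.642% and 0.547% of all genes, and their summed intensity was 38900 to 43800 in null against 35200 to 37900 in wild-type controls, opposite in direction to Cyp2b10. Among them were the glutamine synthetase Glul (0.38, adjusted p = 0.033 in limma) and Lhpp (0.70, adjusted p = 0.0074), and Glul lost its call without WT-52, WT-54, WT-55, KO-115 or KO-117, after median centring, with all probe sets tested and with only the control groups in the fit. The periportal Pck1 and the leukocyte marker Ptprc were also called higher in null controls. Of 8 stellate cell and fibroblast markers 0 were called there (limma, 7 higher at an unadjusted p below 0.05), and their sum was 3660 to 5030 in null and 3010 to 3440 in wild-type controls. For DEHP in null mice none was called among the markers of hepatocytes (9 measured), their zones (11 pericentral, 7 periportal), macrophages (8), sinusoidal endothelium (8), stellate cells (8), cholangiocytes (5) or leukocytes (7). At an unadjusted p below 0.05 in limma these lists held 0, 2, 1, 2, 2, 0, 0 and 1 such markers, all higher. Without KO-121 none was called either. In wild-type mice under DEHP, where 1.57% of all genes were called lower, the called markers were 3 endothelial (Stab2, Fcgr2b and Bmp2), 3 periportal (Cyp2f2, Hal and Pigr), 2 stellate (Reln and Ecm1), 1 pericentral (Cyp1a2) and 1 hepatocyte marker (Cps1), all lower, and the leukocyte marker S100a8, higher. The endothelial sum was 2870 to 3210 in wild-type controls and 2500 to 2800 under DEHP. In nulls it went the other way, from 2840 to 3180 in controls and from 3210 to 3480 under DEHP, KO-121 included. The sums of the other liver cell and zone lists overlapped between the null groups. Between wild-type controls and DEHP, hepatocyte (96200 to 97700 against 90400 to 94100), periportal (24100 to 25100 against 22200 to 22900) and stellate sums (3010 to 3440 against 2760 to 2960) also did not overlap. The leukocyte sum was higher under DEHP there (264 to 284 against 337 to 411). Pericentral, macrophage and cholangiocyte sums overlapped between the wild-type groups. The part of these shifts in the Cyp2b10 result was not tested. Cyp2b10 was 1.6 higher under DEHP in nulls without KO-121, the array with the muscle signal.

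The genes most like Cyp2b10 over the 15 arrays were taken by Pearson correlation of log2 values, as a description, among the 9968 other genes at or above the median level. They were Ifnar2, a chain of the type I interferon receptor (r = 0.93), Fech, which inserts iron into heme (r = 0.90), the calcineurin subunit Ppp3cc (r = 0.90) and the serine hydroxymethyltransferase Shmt2 (r = 0.87). The 99th percentile of all candidates was 0.72. After the group means were taken out, r was 0.75, 0.79, 0.54 and 0.56. Their differences were smaller than those of Cyp2b10: Ifnar2 rose by 0.46 ± 0.08 with DEHP in null mice and by 0.29 ± 0.07 in wild-type mice (adjusted p = 0.0213 and 0.0318 in limma), and the other 3 were called in no comparison. Without KO-121 the rise of Ifnar2 in nulls was 0.52. The Ifnar2 calls were lost with only the null groups in the fit or without KO-122 or KO-123 in nulls, and with all probe sets tested or without any 1 wild-type animal other than WT-57 in wild-type mice.

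**Figure D4:**
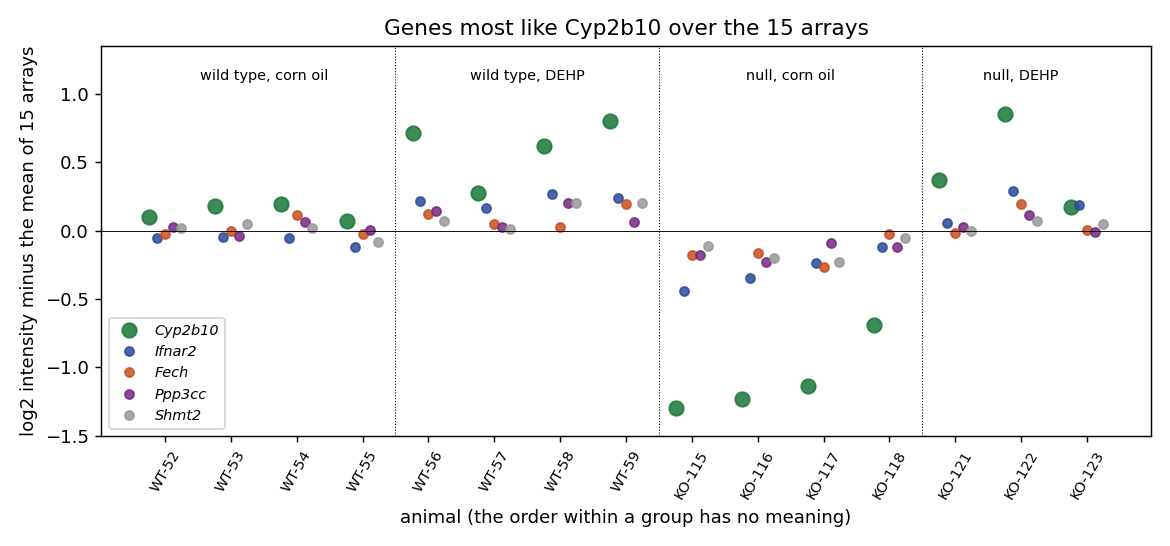
Log2 intensity minus the mean of the 15 arrays for Cyp2b10 (large green points) and the 4 genes most correlated with it, by animal. All 5 genes lie below their mean in the 4 null controls, and Cyp2b10 has the widest range.

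Over the 15 arrays Cyp2b9 correlated with Cyp2b10 at r = 0.59, where the 99th percentile of the genes compared with Cyp2b9 was 0.57. For Cyp2b13, r was -0.03 with Cyp2b10 and 0.10 with Cyp2b9. With the group means removed, r with Cyp2b10 was 0.06 for Cyp2b9 and -0.29 for Cyp2b13, and between Cyp2b9 and Cyp2b13 it was 0.11, over 15 arrays. The genes most like Cyp2b9 were Prkci (r = 0.77), Zscan20 (0.76), Eif3h (0.76) and Tmem19 (0.75). Those most like Cyp2b13 were Hibadh (0.86), Dnajb14 (0.81), Golim4 (0.76) and Clasrp (0.75). Both Cyp2b probe sets were dim, and KO-123 stood apart for Cyp2b13, so these rankings can lean on background signal or on that array. Spearman correlation was 0.73, 0.56, 0.71 and 0.84 for the genes most like Cyp2b9. For those most like Cyp2b13 it was 0.84, 0.83, 0.44 and 0.53. None of these 8 was called in any comparison.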

How the data were processed

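Labelled cDNA of each liver was hybridized to 1 array, per the labels' protocols (mirVana RNA, Affymetrix WT kit). The authors deposited linear intensity values per probe set, from 1.77 to 23336.67, with array medians of 44.4 to 47.53, so arrays had been brought to a common scale; method, array batches and detection calls are not stated in the sources used here. No normalization was added before taking log2. Of 35494 probe sets 21789 had 1 gene symbol, and the one with the highest mean log2 was kept per gene, giving 19938 genes. All 15 arrays entered 1 limma 3.58.1 fit with 4 group means (R 4.3.3; residual degrees of freedom 11, prior 4.68), with Benjamini-Hochberg adjustment over all genes of a contrast.

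Exact permutation tests used scipy 1.17.1, alignments biopython 1.88 and figures matplotlib 3.10.9. The limma script was tested on simulated data. The members and gene lists were chosen with earlier results of these data known. Beside the 3 Cyp2b genes, named genes were Ppara and Nr1i3, the measured Cyp2 genes of the cluster, called members of the other lists with the lowest adjusted p, and the 4 genes most correlated with each Cyp2b gene. Other list members are given where the text compares them with Cyp2b10. Alternatives were 2 further normalizations, an offset, a filter on dim genes, other use of probe sets, other priors and weights, fits of the compared groups alone, and fits without each animal. The number of arrays limits the precision. Counts of called list members without KO-121 were added after seeing the data.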

Additional observations from a re-analysis of the deposited data

Results flagged for a closer look

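The DEHP effect on Cyp2b10 differed between genotypes. It was larger by 1.09 on the log2 scale in null than in wild-type mice (limma interaction, adjusted p = 0.0308), where it was not called. The null controls, which were lower in all 4 animals, enter this difference. The null minus wild-type difference of the DEHP effects was also positive and called for 5 of 36 other CAR and PXR target genes by the same test. Of all genes 0.336% were called in this direction. It was 1.54 (Cyp2c55), 1.40 (Cyp2c37), 1.04 (Cyp2c54), 0.63 (Cyp1a2) and 0.53 (Cyp2c29), all resting on the same 15 arrays. Cyp2c37, Cyp2c54 and Cyp1a2 were called lower with DEHP in wild-type mice, and their estimates in null mice were positive. In null mice only Cyp2c37 of these was called, and its wild-type call was lost in all 8 leave-out fits.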

How the results depend on the processing

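Of 134 values for Cyp2b genes under other settings 5 changed direction or side of the threshold, as did 13 of 135 with 1 animal left out. With only the compared groups in the fit, Cyp2b10 was called for DEHP in wild-type mice (0.46) and not in null mice (1.55). Exact permutation tests, adjusted over 12 tests, called neither the null DEHP effect (1.55) nor the control difference (-1.23), which group sizes do not allow, and with all probe sets tested the interaction (1.09) lost its call. Leave-out ranges of Cyp2b10 were 1.36 to 1.7 for DEHP in null mice, 0.39 to 0.57 in wild-type mice, -1.36 to -1.16 between controls, -0.33 to 0.01 under DEHP and 0.9 to 1.24 for the interaction. For Cyp2b9 they were 0.14 to 0.35, 0.04 to 0.21, -0.25 to -0.11, -0.18 to 0.03 and 0.01 to 0.22, and for Cyp2b13 -0.15 to 0.21, -0.11 to -0.04, -0.09 to 0, -0.13 to 0.22 and -0.08 to 0.28.

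Counts of called genes hung on the settings; the cause was not tested. For DEHP in null mice the count of 94 became 32 (median centring), 295 (offset of 32), 320 (dim genes left out), 293 (trend and robust prior), 56 (array weights) and 1 (compared groups only), and 9 to 168 with 1 animal left out (47 without KO-115, 168 without KO-116, 19 without KO-117, 21 without KO-118, 9 without KO-122, 34 without KO-123). The 179 of the interaction became 444, 517 and 424 under the offset, the filter and the trend and robust prior, and 61 (without WT-53) to 299 (without KO-116) with 1 animal left out. The 2133 between genotypes under DEHP became 1331 with the compared groups only, and 1019 (without KO-122) to 1950 with 1 left out. Leave-out ranges were 433 to 614 (of 770) for DEHP in wild-type mice, with 433, 472 and 473 without WT-53, WT-54 and WT-55, and 159 to 230 (of 237) between controls. Of the CAR and PXR targets, the 7 in null mice became 4, 14, 13 and 1 under median centring, the filter, the trend and robust prior, and the compared groups only (2 to 7 leaving 1 out), the 15 in wild-type mice 8 with all probe sets (7 to 15), and the 2 between controls 4 under the offset, the trend and robust prior and the compared groups (2 to 3), and the 5 of the interaction 9 under the filter (3 to 7). Median centring moved the share of higher calls from 59.2 to 71.3% for DEHP in wild-type mice, from 34 to 46.9% in null mice, from 47.5 to 27.9% between genotypes under DEHP and from 37.4 to 23.4% for the interaction. The difference of 0.01 in Nr1i3 for DEHP in null mice was -0.01 after quantile normalization and -0.05 to 0.07 with 1 animal left out, and that of Cyp2b23 between controls -0.14 to 0.06. Cyp2b9 and Cyp2b13 could not be tested with dim genes left out. No paired analysis was possible because the groups share no replicate numbers.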
